A study of Mus musculus with 12 samples.

Results

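The genes described here are 10 genes of the vessel wall, chosen by symbol from the 49585 genes of the deposited table. They were chosen with earlier results of these data known. They are the vascular endothelial growth factor (VEGF) ligands Vegfa and Vegfc, the VEGF receptors Kdr, Flt1 and Flt4, the TIE receptors Tek and Tie1, the TIE ligand Angpt2, the endothelial adhesion gene Cdh5 and the capillary gene Car4. Lung RNA of C57BL/6 mice was sequenced as 12 libraries in 4 groups of 3. Mice were either wild type (WT) or carried the label Has2+/-, heterozygous for a deficiency of the hyaluronan synthase gene Has2. Each genotype received saline or ovalbumin, an egg protein to which the mice were sensitized before it was given through the nose. Titles with ovalbumin carry the number 24 as a time with no unit, and no age is labelled. Nothing in the labels tells whether replicate libraries are separate animals, so a p-value here reflects the spread among these libraries, which may be technical.

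Library numbers follow the deposited columns. WT mice gave libraries 1 to 3 (ovalbumin) and 4 to 6 (saline), and mice labelled Has2+/- gave 7 to 9 (ovalbumin) and 10 to 12 (saline). Values are the authors' normalized read counts, which were forced to the same distribution in every library, so that the depth of each library is unknown. Has2 itself stood at 5.72 ± 1.17 in WT saline, 6.72 ± 3.39 in WT ovalbumin, 7.75 ± 0.382 in Has2+/- saline and 7.89 ± 2.95 in Has2+/- ovalbumin libraries (mean ± SD, n = 3 each). The difference between genotypes averaged over treatments was 0.32, 95% confidence interval -0.28 to 0.93, adjusted p = 0.684. Has2 was not lower in the libraries labelled Has2+/-, and all comparisons of genotypes rest on the column codes. Libraries 3 and 12 correlated better with a WT saline library than with the libraries of their own group (Spearman rho across genes 0.984 and 0.989, against at most 0.974 and 0.981). Libraries 1, 2, 5, 7 and 10 were also closest to a library of another group, by smaller margins (library 5 to library 12, 0.9885 against 0.9861, and the other 4 by less). With libraries 3 and 12 left out, 7 of the 10 genes still passed in the comparison averaged over genotypes and 5 in WT, where Vegfa no longer did.

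VEGF ligands act on endothelial cells through receptor tyrosine kinases. VEGFA binds KDR (VEGFR2), which drives growth, survival and permeability of blood vessels, and FLT1 (VEGFR1), which binds it tightly but signals weakly and can act as a decoy. VEGFC acts mainly on FLT4 (VEGFR3), the receptor of lymphatic vessels. In parallel, angiopoietin 1 from cells around the vessel activates TEK (TIE2) and stabilizes junctions between endothelial cells. Angiopoietin 2, made by the endothelium itself, can oppose that signal, and TIE1 modulates TEK. In the mouse lung, alveolar epithelial type 1 cells are a main source of VEGFA. The capillary cells that face them, called aerocytes, carry much CAR4 and KDR.

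After ovalbumin, transcripts of the receptors Kdr, Tek, Tie1 and Flt4, of the ligands Angpt2 and Vegfa and of Cdh5 were lower, and those of Flt1, Vegfc and Car4 did not pass the test. In the comparison averaged over both genotypes, 7 of the 10 genes fell and 0 rose, where 11% of the 19017 genes tested fell. The median log2 change of the 10 genes was -0.21, against -0.01 over all genes tested. Log2 changes throughout are differences of log2(value + 1), tested with limma and adjusted by Benjamini and Hochberg over all genes tested, with a threshold of 0.05. The falls were modest, between -0.19 for Vegfa and -0.44 for Angpt2. None of the 7 calls ended when any single library was left out. In the WT mice alone 6 genes fell (background 8.05%), which were Kdr, Angpt2, Tek, Cdh5, Tie1 and Vegfa. That count was 3 without library 1, 4 or 5 and 4 without library 6. In the Has2+/- mice alone 0 genes passed in limma (background for falls 0.952%), while 7 had an unadjusted p under 0.05. The share of all genes at an unadjusted p under 0.05 was not computed. Counts at that threshold, here and below, therefore have no background to be set against. The difference between the genotypes in the response was tested directly and passed for 0 of the 10 genes (background 0.0158%), with 0 at an unadjusted p under 0.05 and a smallest adjusted p of 0.605, that of Kdr. These RNAs come from whole lung, in which fewer endothelial cells and less RNA per cell cannot be told apart.

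**Figure D1:**
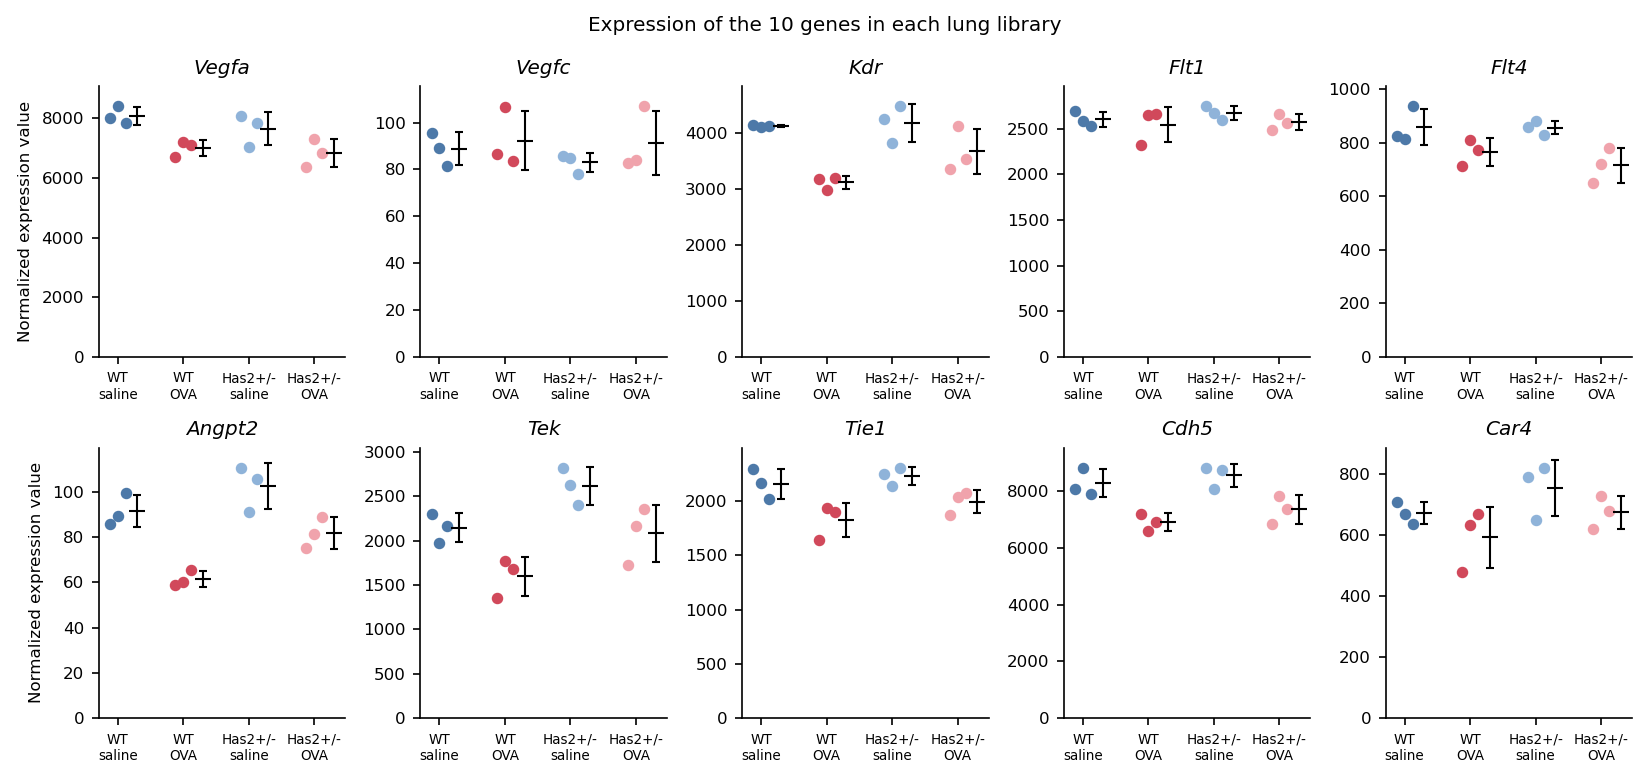
Normalized expression value of each of the 10 genes (vertical axes from 0, one scale per gene) in each of the 12 libraries, by group, where points are libraries and bars the mean ± SD of 3 libraries; OVA stands for ovalbumin. The 3 WT ovalbumin points lie below the 3 WT saline points for Kdr, Flt4, Tek, Tie1, Vegfa, Angpt2 and Cdh5.

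**Figure D2:**
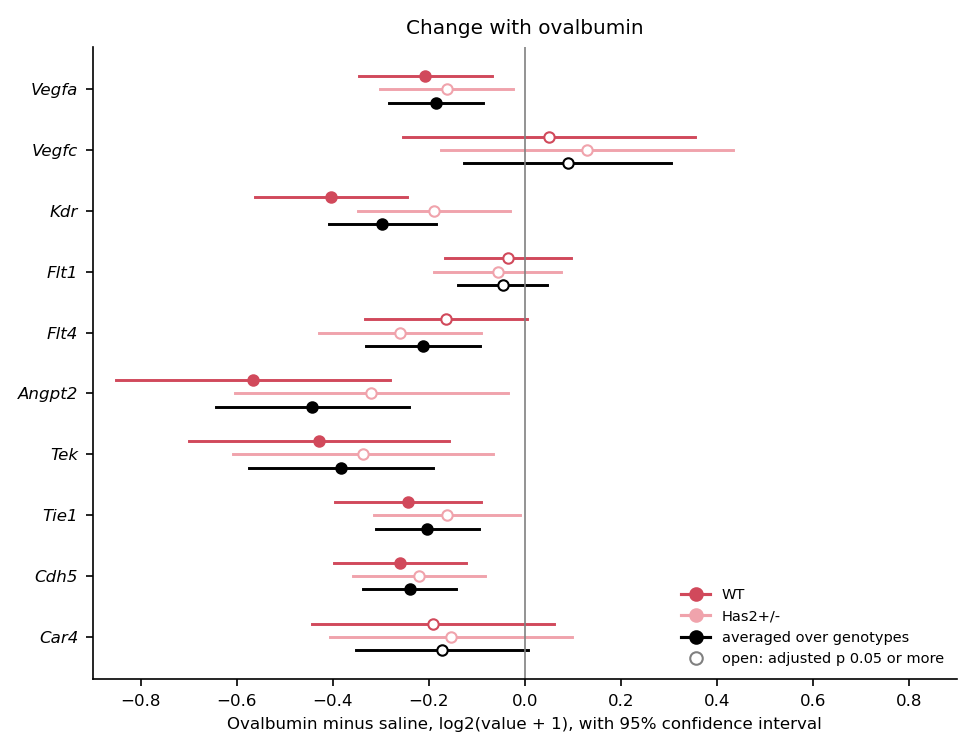
Log2 change with ovalbumin of each gene in WT, in Has2+/- and averaged over both, with 95% confidence intervals from limma; filled points passed an adjusted p of 0.05 and open ones did not. Points lie left of 0 for every gene except Vegfc, and filled points appear in WT (6 genes) and in the average (7 genes).

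Of the ligands, Vegfa (ENSMUSG00000023951, chromosome 17, 46016993 to 46032369 in mm10, minus strand) stood at 7999.6, 8407 and 7834 in the WT saline libraries 4 to 6 and at 6694, 7196 and 7108 in the WT ovalbumin libraries 1 to 3. All ovalbumin values lay below all saline values in this genotype. In the Has2+/- libraries Vegfa stood at 8082, 7046 and 7834 with saline and 6357, 7312 and 6836 with ovalbumin. There the groups overlapped, since library 8 with ovalbumin was above library 11 with saline. The change was -0.21, adjusted p = 0.0399 in WT and -0.16, adjusted p = 0.184 in Has2+/-, and -0.19, 95% confidence interval -0.28 to -0.09, adjusted p = 0.00909 on average. The WT call for Vegfa was the weakest of the 6. It ended without any single one of the 6 WT libraries or without library 12, with adjusted p up to 0.146. The averaged call of Vegfa ended when limma was run without its trend and robust options.

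Vegfc (ENSMUSG00000031520, chromosome 8, 54077606 to 54187096 in mm10, plus strand), the lymphatic ligand, was expressed at a far lower value and moved little. Its values were 95.6, 89.3 and 81.6 with saline and 86.4, 107 and 83.8 with ovalbumin in WT. In Has2+/- they were 85.8, 85.0 and 78.2 with saline and 82.9, 84.2 and 107 with ovalbumin. The groups overlapped in both genotypes, and the averaged change was 0.09, 95% confidence interval -0.13 to 0.30, adjusted p = 0.580. That interval overlaps the one of Vegfa, and the difference between the changes of Vegfc and Vegfa was not tested.

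Angpt2 (ENSMUSG00000031465, chromosome 8, 18690263 to 18741562 in mm10, minus strand), the TEK ligand that endothelial cells store and release on activation, had the largest average fall of the 10 genes. In WT it went from 85.8, 89.5 and 99.4 with saline to 58.7, 60.2 and 65.6 with ovalbumin. In Has2+/- it went from 111, 91.2 and 106 with saline to 75.1, 81.5 and 88.9 with ovalbumin. The ovalbumin values lay below the saline values in both genotypes, with a wide gap in WT and a narrow one in Has2+/-. Its log2 change was -0.57, 95% confidence interval -0.85 to -0.28, adjusted p = 0.00959 in WT, -0.32, adjusted p = 0.204 in Has2+/- and -0.44, 95% confidence interval -0.64 to -0.24, adjusted p = 0.00352 on average. The gene lies inside an intron of Mcph1 on the other strand, and Mcph1 had a mean value of 95.9 over the 12 libraries. Whether the authors' counting used strand is not given in the sources used here, so reads of the gene on either strand cannot be told apart.

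The main receptor Kdr (ENSMUSG00000062960, chromosome 5, 75932827 to 75978458 in mm10, minus strand) showed the tightest WT saline values of the 10 genes, 4143, 4109 and 4125, and the WT ovalbumin libraries had 3176, 2980 and 3200.5. The gap between these groups was wider than the range within either. The Has2+/- libraries stood at 4249, 3819 and 4482 with saline and 3353, 4125 and 3544 with ovalbumin. Library 8 with ovalbumin reached the WT saline level and lay above saline library 11, so the groups overlapped. The change was -0.40, 95% confidence interval -0.56 to -0.25, adjusted p = 0.00217 in WT, -0.19, adjusted p = 0.175 in Has2+/- and -0.30, 95% confidence interval -0.41 to -0.19, adjusted p = 0.00100 on average. The Has2+/- change minus the WT change was 0.21, 95% confidence interval -0.01 to 0.44, adjusted p = 0.605.

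Flt1 (ENSMUSG00000029648, chromosome 5, 147561604 to 147726011 in mm10, minus strand), the second VEGFA receptor, passed in none of the comparisons. It stood at 2696, 2586 and 2536 with saline and 2322, 2655 and 2663 with ovalbumin in WT. In Has2+/- its values were 2750, 2676 and 2598 with saline and 2484, 2663 and 2568 with ovalbumin. Apart from library 1, the lowest of the 12, all libraries lay within a narrow band in which the groups overlapped. The averaged change was -0.05, 95% confidence interval -0.14 to 0.05, adjusted p = 0.498. That interval has its lower bound nearer 0 than the averaged change of Kdr. The difference between both receptors was tested directly as a ratio, which did not pass (exact permutation test, adjusted p = 0.06). A value per gene does not separate the soluble FLT1 form from the membrane form.

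Flt4 (ENSMUSG00000020357, chromosome 11, 49609263 to 49652739 in mm10, plus strand), the receptor for VEGFC, fell in the averaged comparison. WT values were 826, 813 and 938 with saline and 712, 813 and 773 with ovalbumin, where library 2 came just under library 5. In Has2+/- they were 858, 880.5 and 831 with saline and 649.7, 721 and 779.9 with ovalbumin, also without overlap. All 6 ovalbumin values of Flt4 were below all 6 saline values, which also held for Cdh5 and for no other of the 10 genes (background 3.42%). The change was -0.16, adjusted p = 0.175 in WT, -0.26, adjusted p = 0.0852 in Has2+/- and -0.21, 95% confidence interval -0.33 to -0.09, adjusted p = 0.0125 on average. Without library 9 the Has2+/- change passed (-0.32, adjusted p = 0.0446), and the averaged call ended when limma was run without its trend and robust options (adjusted p = 0.0508).

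Tek (ENSMUSG00000006386, chromosome 4, 94739289 to 94874976 in mm10, plus strand), the angiopoietin receptor, stood at 2300.4, 1972 and 2161 in WT saline and 1353, 1772 and 1675 in WT ovalbumin libraries. With the Has2+/- label it stood at 2821, 2624 and 2395 with saline and 1724, 2166 and 2352 with ovalbumin. Within each genotype the ovalbumin values were below the saline values. Has2+/- ovalbumin libraries 8 and 9 reached the level of WT saline, whereas library 7 lay within the WT ovalbumin range. The change was -0.43, 95% confidence interval -0.70 to -0.16, adjusted p = 0.0349 in WT, -0.34, adjusted p = 0.165 in Has2+/- and -0.38, 95% confidence interval -0.58 to -0.19, adjusted p = 0.00882 on average. The WT call ended without library 1, 4, 6 or 11, with adjusted p up to 0.119.

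Tie1 (ENSMUSG00000033191, chromosome 4, 118471191 to 118490061 in mm10, minus strand), the partner of TEK, fell by about as much as Flt4 on average. It had 2291, 2161 and 2019 with saline and 1643, 1934 and 1895 with ovalbumin in WT. The Has2+/- libraries had 2244, 2136 and 2307 with saline and 1873, 2037 and 2069 with ovalbumin. The groups did not overlap in either genotype, and library 1 was the lowest of all. Its change was -0.24, adjusted p = 0.0282 in WT, -0.16, adjusted p = 0.229 in Has2+/- and -0.20, 95% confidence interval -0.31 to -0.10, adjusted p = 0.00907 on average. The WT call ended without library 1, 4 or 5, with adjusted p up to 0.140.

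Cdh5 (ENSMUSG00000031871, chromosome 8, 104101625 to 104144511 in mm10, plus strand) encodes VE-cadherin, the adhesion protein of endothelial junctions that VEGF and TIE signals act on. It was at 8082, 8819 and 7904 with saline and 7196, 6582 and 6919.8 with ovalbumin in WT. With the Has2+/- label Cdh5 was at 8819, 8082 and 8747 with saline and 6836, 7834 and 7368 with ovalbumin. No ovalbumin library reached any saline library, whichever the genotype. The change was -0.26, 95% confidence interval -0.40 to -0.12, adjusted p = 0.0121 in WT, -0.22, adjusted p = 0.0762 in Has2+/- and -0.24, 95% confidence interval -0.34 to -0.14, adjusted p = 0.00163 on average. The WT call ended without library 5 (adjusted p = 0.0681). An antisense gene, Gm29682, overlaps an intron of Cdh5.

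Car4 (ENSMUSG00000000805, chromosome 11, 84957786 to 84966044 in mm10, plus strand) encodes a carbonic anhydrase on the surface of aerocytes, which also carry much KDR. Its values were 708, 669 and 637 with saline and 479.7, 632 and 668 with ovalbumin in WT. The Has2+/- values were 789, 649.7 and 821 with saline and 618, 728 and 678 with ovalbumin. Library 1 was the lowest, and the groups overlapped in both genotypes. The change of Car4 was -0.19, adjusted p = 0.300 in WT, -0.15, adjusted p = 0.511 in Has2+/- and -0.17, 95% confidence interval -0.35 to 0.01, adjusted p = 0.158 on average.

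Counted by overlap alone, 7 genes had every WT ovalbumin value below every WT saline value (background 17.6%) and 5 did so in Has2+/- (background 11%). Flt4, Tek, Tie1, Angpt2 and Cdh5 did so in both genotypes, where 5.41% of all genes tested did. The authors' deposited table holds its own test, EDGE, with an FDR-corrected p for each pair of groups. In the authors' deposited table, by that test, 0 of the 10 genes passed 0.05 for ovalbumin against saline in WT, where 1712 genes did. The smallest values there, in the authors' deposited table, were 0.0558 for Kdr, 0.0624 for Angpt2 and 0.0933 for Tek. For Has2+/- it likewise had 0 of the 10 genes, with 471 genes passing in the authors' deposited table.

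The starts of 4 receptor genes are shown because 3 of them fell (Kdr, Tek and Tie1) and the other, Flt1, did not pass the test. They come from RefSeq on GRCm38.p6 and run from 250 bases before to 50 after the annotated start, 5′ to 3′ on the strand of the gene. Kdr lies at chr5:75978406-75978705, minus strand; Tek at chr4:94739039-94739338, plus strand; Tie1 at chr4:118489800-118490099, minus strand; Flt1 at chr5:147725962-147726261, minus strand. Capitals mark the ETS core letters CCGGAA or AGGAAG on either strand, a sequence read by transcription factors of the ETS family, many of which act in endothelium.
Kdr: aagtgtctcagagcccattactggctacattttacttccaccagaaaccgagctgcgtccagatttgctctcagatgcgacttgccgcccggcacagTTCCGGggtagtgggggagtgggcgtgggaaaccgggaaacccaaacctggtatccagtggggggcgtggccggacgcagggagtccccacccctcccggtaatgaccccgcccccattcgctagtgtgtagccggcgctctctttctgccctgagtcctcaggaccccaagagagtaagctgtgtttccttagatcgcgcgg
Tek: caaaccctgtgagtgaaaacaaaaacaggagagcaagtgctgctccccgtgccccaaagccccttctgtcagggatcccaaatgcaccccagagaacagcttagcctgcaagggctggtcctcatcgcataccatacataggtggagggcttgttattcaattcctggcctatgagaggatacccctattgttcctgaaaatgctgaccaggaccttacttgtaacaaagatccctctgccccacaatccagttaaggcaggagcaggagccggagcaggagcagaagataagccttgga
Tie1: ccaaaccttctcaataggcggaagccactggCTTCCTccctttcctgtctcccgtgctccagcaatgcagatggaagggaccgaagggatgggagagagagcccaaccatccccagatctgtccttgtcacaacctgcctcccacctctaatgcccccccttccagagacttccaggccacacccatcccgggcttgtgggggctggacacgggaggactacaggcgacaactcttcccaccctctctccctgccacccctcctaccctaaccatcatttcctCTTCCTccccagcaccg
Flt1: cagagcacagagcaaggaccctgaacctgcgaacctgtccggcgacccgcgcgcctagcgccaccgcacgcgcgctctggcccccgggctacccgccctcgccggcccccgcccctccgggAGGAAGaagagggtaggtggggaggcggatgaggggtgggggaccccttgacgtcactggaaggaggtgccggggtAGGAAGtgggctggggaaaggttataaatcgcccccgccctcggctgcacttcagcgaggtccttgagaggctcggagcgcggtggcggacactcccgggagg
The core letters stand once in the Kdr window, at position -153 from the start, and not in the Tek window. They stand at -219 and 33 in Tie1 and at -129 and -53 in Flt1. RefSeq windows were matched for 8 of the 10 genes, all but Angpt2 and Cdh5. Of these 8, the windows of 4 (Car4, Flt1, Kdr and Tie1) held the ETS core, where 45% of 32544 promoter windows did. The hypoxia response core ACGTG stood in 2 (Car4 and Vegfa; 19.7% of all), and the GATA letters AGATAA or TGATAA in 2 (Tek and Vegfa; 18.5% of all). The GC box GGGCGG stood in 5 (Flt1, Flt4, Kdr, Vegfa and Vegfc; 35.9% of all). All motifs were searched on both strands, and overlapping matches were counted. The motifs were chosen after the values were seen. Kdr, which fell, and Flt1, which did not pass the test, both hold the ETS core and the GC box. Vegfa has windows at separate starts, which were searched together.

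Pairs of genes measured in one library give ratios that a single scaling factor per library leaves almost unchanged. The authors' quantile normalization acts by level and can alter them, and no other normalization was run for the ratios. Each log2 ratio was compared between ovalbumin and saline within genotypes by an exact permutation test over 400 arrangements, two-sided, whose smallest possible p is 0.005. The ratio of Flt1 to Kdr was -0.62, -0.67 and -0.70 in WT saline and -0.45, -0.17 and -0.27 in WT ovalbumin libraries. It was higher in each WT ovalbumin library than in any WT saline one. In Has2+/- it was -0.63, -0.51 and -0.79 with saline and -0.43, -0.63 and -0.46 with ovalbumin, with overlap. The averaged difference was 0.25 (exact permutation p = 0.015, adjusted over 4 ratios p = 0.06).

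The ratio of Vegfa to Kdr, ligand over receptor, averaged 0.97 ± 0.06 with saline and 1.17 ± 0.10 with ovalbumin in WT (mean ± SD, n = 3). In Has2+/- it averaged 0.87 ± 0.06 and 0.90 ± 0.06, a difference smaller than the spread between libraries. The difference averaged over genotypes was 0.11 (exact permutation p = 0.045, adjusted p = 0.06). The ratio of Tie1 to Tek averaged 0.01 ± 0.12 with saline and 0.19 ± 0.08 with ovalbumin in WT, and -0.23 ± 0.15 and -0.05 ± 0.16 in Has2+/-. That averaged difference was 0.18 (exact permutation p = 0.035, adjusted p = 0.06). Angpt1, the activating TEK ligand, whose exons overlap those of the antisense gene Gm17473 (mean value 3.13), went from 373 ± 12.2 to 226 ± 44.4 in WT (-0.74, adjusted p = 0.0190) and from 377 ± 28.1 to 322 ± 84.5 in Has2+/- (-0.26, adjusted p = 0.478). It changed by -0.50, 95% confidence interval -0.79 to -0.21, adjusted p = 0.0178 on average, so both angiopoietins fell. The WT call of Angpt1 ended without library 1, 4, 5 or 6, with adjusted p up to 0.0612. The ratio of Angpt2 to Angpt1 differed by 0.06 (exact permutation p = 0.685, adjusted p = 0.685). Adjusted over the 4 ratios, 0 of them passed. Without library 8, an ovalbumin library with high Kdr, Flt1 to Kdr (0.28) and Vegfa to Kdr (0.13) both passed with an adjusted p of 0.03. With library 6 left out instead, neither passed, at an adjusted permutation p of 0.12 and 0.127.

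**Figure D3:**
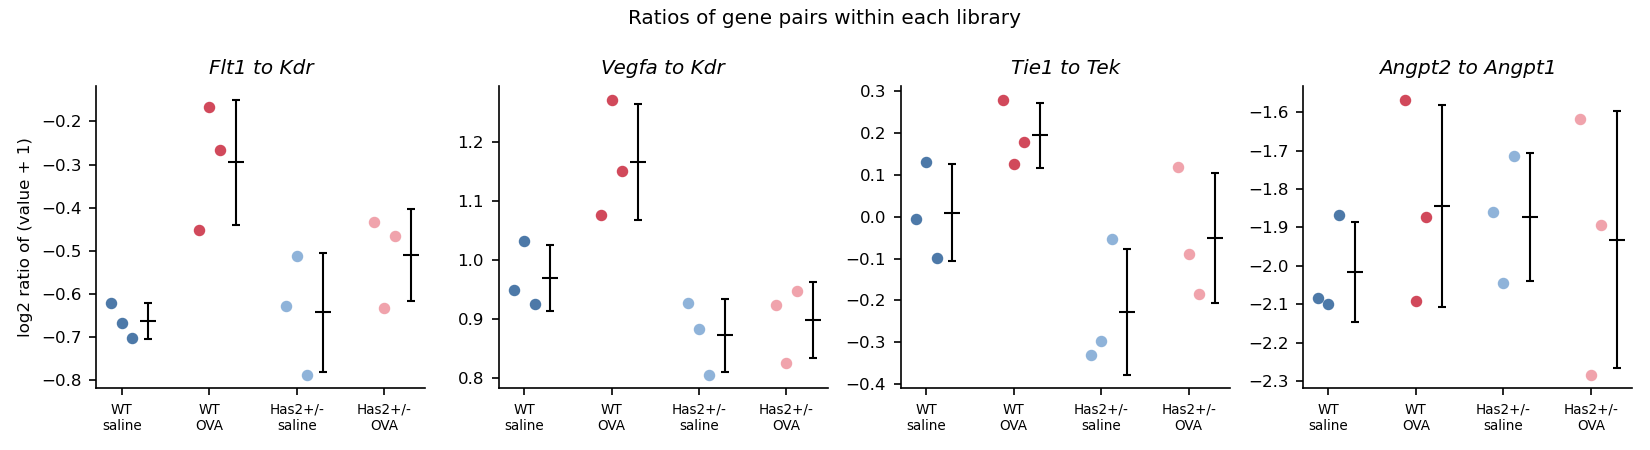
Log2 ratio of (value + 1) of 4 gene pairs in each library (vertical axes, one scale per pair and not from 0), by group, with the mean ± SD of 3 libraries; OVA stands for ovalbumin. Flt1 to Kdr is higher in the 3 WT ovalbumin libraries than in the 3 WT saline ones, and Angpt2 to Angpt1 overlaps throughout.

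How far these falls go with endothelial RNA as a whole was measured by setting each library to the mean log2 level of 22 other endothelial genes, among them Pecam1, Cldn5 and Erg. Of those 22 genes 7 fell and 0 rose in the averaged comparison, with a median of -0.10, where the median of all genes was -0.01. Their summed level was 40048 to 41935 in WT saline and 35259 to 38372 in WT ovalbumin libraries, without overlap. In Has2+/- it was 40055 to 42098 with saline and 36656 to 40765 with ovalbumin, with overlap. The transcription factor gene Erg fell by 0.42 (adjusted p = 0.000283), the lectin gene Clec14a by 0.52 (adjusted p = 0.000506) and the receptor gene Acvrl1 by 0.24 (adjusted p = 0.00137) on the log2 scale. Setting the libraries to these genes adds the same 0.13 to the averaged change of every gene, and 3800 genes were higher and 888 lower, against 2167 and 2094 as deposited.

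Relative to the other endothelial genes, 3 of the 10 genes were still lower. They were Tek (-0.25, 95% confidence interval -0.39 to -0.11, adjusted p = 0.0106), Angpt2 (-0.31, adjusted p = 0.0295) and Kdr (-0.16, adjusted p = 0.0402). Those of Cdh5 (-0.11, adjusted p = 0.141), Flt4 (-0.08, adjusted p = 0.359), Tie1 (-0.07, adjusted p = 0.306) and Vegfa (-0.05, adjusted p = 0.424) did not pass. Flt1 turned from -0.05 to 0.09 (adjusted p = 0.190) and did not pass on either scale. The named changes of other genes given below are larger than the shift of 0.13 and so keep their sign on the relative scale. Whether their calls hold on that scale is not given here. Medians between -0.13 and 0, such as those of the 22 genes and of the VEGF pathway, turn positive. In WT alone Kdr was the 1 gene of the 10 that passed on this scale (-0.23, adjusted p = 0.0486).

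**Figure D4:**
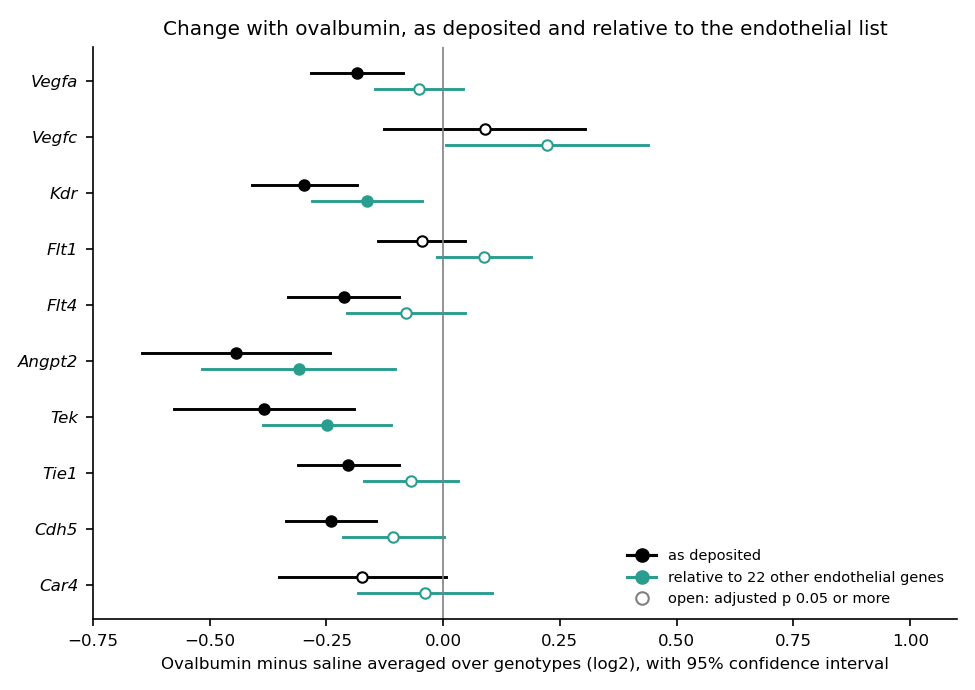
Log2 change with ovalbumin averaged over genotypes for each gene, with 95% confidence intervals, as deposited and relative to 22 other endothelial genes; filled points passed an adjusted p of 0.05. On the relative scale Kdr, Angpt2 and Tek stay filled, and Vegfa, Flt4, Tie1 and Cdh5 are open.

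Between genotypes, 0 of the 10 genes passed in limma under saline (background 0.0105%, 1 gene at an unadjusted p under 0.05), under ovalbumin (background 0.952%, 3 genes) or averaged over treatments (background 0.421%, 3 genes). These backgrounds are for the adjusted p and not for the unadjusted counts. The authors' deposited table also had 0 of the 10 genes past 0.05 between WT and Has2+/- with saline and with ovalbumin. Tek was higher in every Has2+/- saline library than in any WT saline library, the 1 gene of the 10 of which that held (background 7.04%). Its difference was 0.28, 95% confidence interval 0.01 to 0.56, adjusted p = 0.869 under saline, 0.38, adjusted p = 0.170 under ovalbumin and 0.33, 95% confidence interval 0.14 to 0.52, adjusted p = 0.136 averaged. Under ovalbumin, Kdr (0.23, 95% confidence interval 0.07 to 0.39, adjusted p = 0.143) and Angpt2 (0.41, 95% confidence interval 0.12 to 0.69, adjusted p = 0.153) were higher in every Has2+/- library than in any WT library (background 10.4%). This comparison shares the WT ovalbumin libraries with the WT response above. Without library 7, the Has2+/- ovalbumin library with the lowest Tek and Kdr, the ovalbumin difference passed for Kdr (0.29, adjusted p = 0.0366) and Tek (0.51, adjusted p = 0.0269), and the averaged one for Tek (0.40, adjusted p = 0.0253). Leaving out any other single library gave no call among the 10 genes in these comparisons.

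Set per kilobase of exon, so that genes can be compared, Cdh5 and Vegfa were the most abundant of the 10 in WT saline lungs, at 1967 ± 115 and 1886 ± 68.7 normalized units per kilobase. Their ranges over 3 libraries overlapped. Kdr (457 ± 1.86), Tek (455 ± 35.0) and Tie1 (439 ± 27.7) followed at one level, with Kdr overlapping Tek and Tek overlapping Tie1. Car4 (341 ± 18.0), Flt1 (193 ± 6.05) and Flt4 (104 ± 8.31) came next without overlap. Vegfc (36.3 ± 2.86) and Angpt2 (24.8 ± 1.91) were the lowest. The order was the same in the other 3 groups except among Kdr, Tek and Tie1. Tie1 had the highest mean of these 3 receptors in WT ovalbumin libraries, at 371 ± 32.1 per kilobase with Kdr at 345 ± 13.4, with overlapping ranges. Tek led them without overlap in Has2+/- saline libraries at 555 ± 45.3.

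Across the 12 libraries Kdr varied most closely with Cdh5 (Pearson r of log2 values 0.923), Angpt2 (0.896) and Tie1 (0.808), and less with Flt1 (0.387). Tek varied with Tie1 (0.881) and Angpt2 (0.879). Vegfc went with none of the others, its highest r being 0.133, with Flt1. These values describe 12 libraries that share treatment and genotype groups. Among all genes with a mean of at least 50, those most like Kdr were Kmt5b (r = 0.970), Myct1 (0.967) and Dpysl2 (0.966). Those most like Tek were Pcmtd2 (r = 0.975), Hs3st1 (0.975) and Rgs3 (0.970), and those most like Tie1 were Tsc22d1 (r = 0.978), Mapt (0.972) and Zfp532 (0.964). For Flt1 they were P3h2 (r = 0.965), Ephb3 (0.941) and Chmp4c (0.931), and for Flt4 they included Tbc1d17 (r = 0.980) and Kif16b (0.944). For Angpt2 they were Mtus1 (r = 0.963), Cadm1 (0.958) and Tnfrsf19 (0.957), and for Vegfa Trim3 (r = 0.946), Setbp1 (0.945) and Arhgef17 (0.941). For Cdh5 they were Kmt5b (r = 0.954), Fgfr2 (0.943) and Ehd4 (0.941), for Car4 Reps2 (r = 0.924), Smim10l1 (0.921) and 4833439L19Rik (0.918) and for Vegfc D930016D06Rik (r = 0.863), Pak4 (0.858) and Malat1 (0.834).

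The other genes of the VEGF pathway moved in both directions. Of 16 such genes 6 fell and 4 rose in the averaged comparison (backgrounds 11% and 11.4%), with a median of -0.10. The coreceptor gene Nrp1 (-0.22, adjusted p = 0.00291) and Plcg1 (-0.32, adjusted p = 0.00122), which encodes a phospholipase that KDR activates, fell. So did Nr4a1 (-0.58, adjusted p = 0.00405), a nuclear receptor gene induced by VEGF in cultured endothelium. Sh2d2a, which encodes an adaptor that binds KDR and is also made by T cells, rose (0.65, adjusted p = 0.00112). Of 10 other genes of the angiopoietin and TIE pathway 4 fell and 2 rose. Beside Angpt1, Foxo1 (-0.29, adjusted p = 0.00400), a transcription factor gene under TEK control, and the insulin receptor substrate gene Irs1 (-0.45, adjusted p = 0.0265) fell. Dok2, an adaptor of TEK that is also made by leukocytes, rose (1.18, adjusted p = 0.00136). Its rise went with a higher level of leukocyte genes. Of 9 tested leukocyte and macrophage genes 4 rose and 0 fell, among them the macrophage genes Adgre1 (0.78, adjusted p = 7.33e-06) and Cd68 (1.01, adjusted p = 0.000108). Their part in the rises of Dok2 and Sh2d2a was not tested. The summed level of those 9 genes was 21267 to 24256 in WT saline, 23363 to 28158 in WT ovalbumin, 24546 to 26693 in Has2+/- saline and 27002 to 30275 in Has2+/- ovalbumin libraries. Most of that sum was Lyz2, at 18027 ± 1099 with saline and 18189 ± 2480 with ovalbumin in WT, and 20308 ± 718 and 21800 ± 2633 in Has2+/-. With the mean log2 level of the 9 genes as a covariate, 0 of the 10 vessel genes passed in WT or on average, where 0 of all genes tested passed either.

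Endothelial subtypes were read from lists without the 10 genes. Of 9 aerocyte genes 5 fell and 1 rose (median -0.28), among the falls Tbx2 (-0.28, adjusted p = 0.000813), Chst1 (-0.40, adjusted p = 0.00289), Emp2 (-0.23, adjusted p = 0.00965) and Fibin (-0.51, adjusted p = 0.0154). Of 10 general capillary genes 3 fell and 0 rose (median -0.16), led by Gpihbp1 (-0.39, adjusted p = 0.0102), which anchors lipoprotein lipase on capillaries. The calls of Cd300lg (-0.73, adjusted p = 0.0200) and Ptprb (-0.38, adjusted p = 0.0463), the phosphatase that acts on TEK, ended, the first without library 6 and the second without library 1, 3, 4, 5, 6, 8, 10, 11 or 12. Of 10 artery genes 5 fell and 1 rose (median -0.33). The Notch ligand Dll4, a target of VEGF signals in arteries, fell (-0.51, adjusted p = 0.000284), as did Fbln5 (-0.47, adjusted p = 0.00388) and Hey1 (-0.48, adjusted p = 0.0149). Mgp, a matrix protein gene also made by smooth muscle and other cells, rose (0.55, adjusted p = 3e-05).

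Of 9 vein genes 2 rose and 1 fell, and of 9 lymphatic genes other than Flt4 3 rose and 3 fell. The lymphatic genes Reln (-0.75, adjusted p = 0.000380) and Mmrn1 (-0.44, adjusted p = 0.00270) fell with Flt4, while Thy1 (0.50, adjusted p = 0.000576) and Pdpn (0.42, adjusted p = 0.00358), both also made by other cells, rose. The vein gene Nr2f2 (-0.21, adjusted p = 0.0175) lost its call without library 10. Genes of activated endothelium moved the other way from the receptors: 9 of 10 rose and 0 fell, with a median of 0.84. The leukocyte adhesion genes Selp (1.78, adjusted p = 4.44e-06), Sele (1.71, adjusted p = 0.000123) and Vcam1 (0.79, adjusted p = 2.94e-05) rose, as did the NF-kB feedback gene Tnfaip3 (0.85, adjusted p = 4.35e-06). Sele went from 13.9 ± 4.04 to 47.4 ± 22.1 in WT and from 12.4 ± 1.05 to 45.9 ± 10.8 in Has2+/- (mean ± SD, n = 3), which are low values. Ackr1 of the vein list (2.66, adjusted p = 0.000289) started from 2.72 ± 2.59 and 1.44 ± 1.00 with saline, so the size of its change depends on the pseudocount. Vcam1 and Ackr1, the 2 vein genes that rose, are on both lists. Icam1, Cd74, Tnfaip3, Lrg1, Csf3 and Il6 of the activated endothelium list are also made by leukocytes. The leukocyte and macrophage genes given above (4 of 9 higher, median 0.36) moved with the list, and their part in its rises was not tested.

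**Figure D5:**
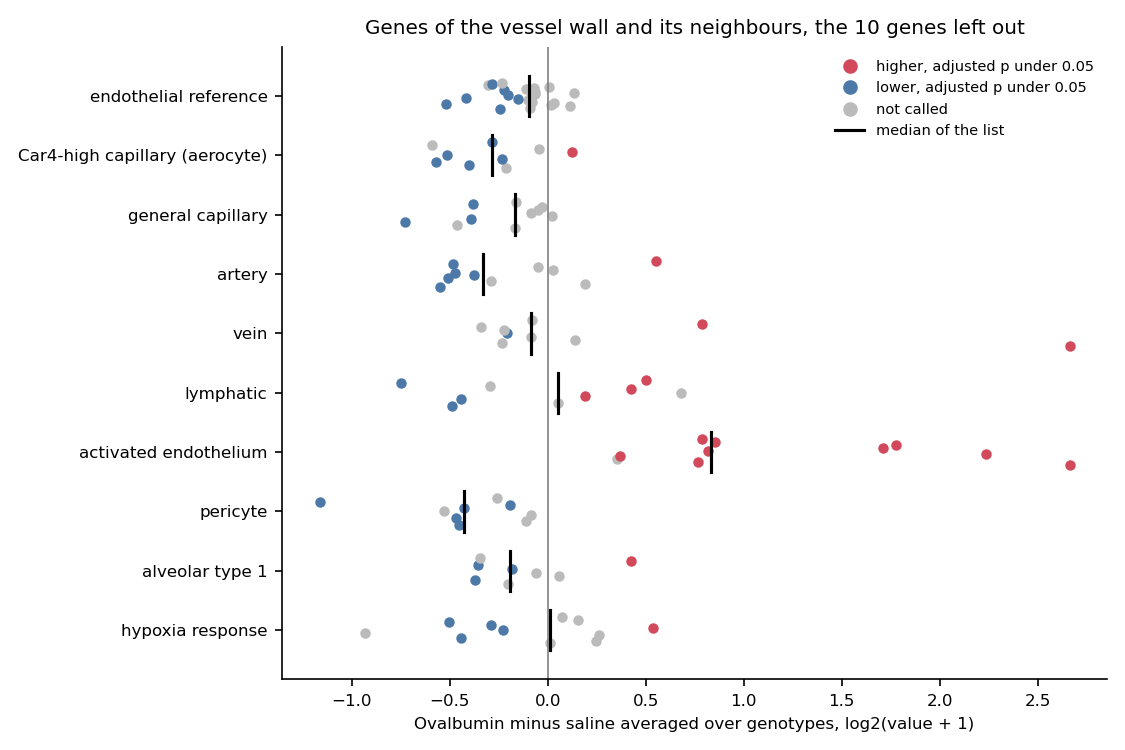
Log2 change with ovalbumin averaged over genotypes for the genes of 10 lists, the 10 genes of the report left out; each point is a gene, red ones rose and blue ones fell at an adjusted p of 0.05, and the bar is the median. Points of activated endothelium lie right of 0, and the medians of the pericyte, artery and aerocyte lists lie furthest left.

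Cells next to the endothelium were read in the same way. Of 9 pericyte genes 5 fell and 0 rose (median -0.43), among them Rgs5 (-1.16, adjusted p = 0.000380), Notch3 (-0.43, adjusted p = 0.000344), Cox4i2 (-0.45, adjusted p = 0.00124) and Higd1b (-0.47, adjusted p = 0.0103). Of 8 alveolar type 1 genes, markers of the cells that make much of the lung's VEGFA, 3 fell and 1 rose (median -0.19). The gene that rose was Pdpn, which is also on the lymphatic list and was given above. Hopx (-0.35, adjusted p = 0.00839) and Akap5 (-0.37, adjusted p = 0.0124) fell, and the call of Clic5 (-0.18, adjusted p = 0.0291) ended without library 1, 4, 5, 6, 7, 10 or 12. Their summed level was 36399.8 to 37230.2 in WT saline and 26815 to 33045 in WT ovalbumin libraries, and 33268 to 38075 and 31369 to 37548 in Has2+/-. Their part in the lower Vegfa was not tested. Of 11 genes of the hypoxia response other than Vegfa, itself a target of hypoxia-inducible factors, 4 fell and 1 rose (median 0.01). Hif1a rose (0.53, adjusted p = 0.000108), and its target genes Pdk1 (-0.50, adjusted p = 0.000395), Bnip3 (-0.44, adjusted p = 0.00539) and Ndrg1 (-0.29, adjusted p = 0.0157) fell, as did Vegfa. Epas1, with far higher values than Hif1a, had lower means with ovalbumin in both genotypes. It went from 28364 ± 1233 to 23972 ± 3409 in WT and from 29556 ± 2886 to 25633 ± 2265 in Has2+/-. Other genes of the list, such as Pfkfb3, Ankrd37 and Car9, had higher means with ovalbumin in both genotypes and did not pass.

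Markers of tissue outside the alveoli also differed between the libraries. Of 8 cardiomyocyte genes, which mark the heart muscle sleeves of mouse pulmonary veins, 7 fell. Their summed level was 8607 to 10629.6 in WT saline, 3668 to 4112 in WT ovalbumin, 7312 to 10424 in Has2+/- saline and 5023 to 6312 in Has2+/- ovalbumin libraries. All 8 fat cell genes fell, with sums of 1692 to 4484, 454 to 594, 737 to 1922 and 593 to 753 in the same order. Of 10 squamous epithelium genes, which mark the lining of the upper airway and food pipe, 0 passed in limma (4 at an unadjusted p under 0.05, all lower). Their sum was 31195, 1969 and 23177 in WT saline and 62.1, 48.2 and 28152 in WT ovalbumin libraries. In Has2+/- it was 35685, 25457 and 132 with saline and 390.2, 142 and 60.7 with ovalbumin, so libraries 3 to 6, 10 and 11 held much of this RNA and the others little. No gene of these 3 lists was at 0 in every library. The part of heart muscle and fat tissue in the results was not tested. With the squamous level as a covariate, 1942 of the 19017 genes tested passed on average, against 4261 without it. In that fit 4 of the 10 genes still fell on average, Kdr (-0.31, adjusted p = 0.0100), Cdh5 (-0.27, adjusted p = 0.0108), Angpt2 (-0.43, adjusted p = 0.0375) and Vegfa (-0.20, adjusted p = 0.0455), while Tie1 (-0.20, adjusted p = 0.0595), Tek (-0.32, adjusted p = 0.0909) and Flt4 (-0.20, adjusted p = 0.0960) did not pass. Among the other genes named above that were followed in it, Angpt1, Gpihbp1, Cd300lg, Ptprb, Emp2, Hey1, Nr2f2, Higd1b, Hopx, Akap5, Clic5 and Bnip3 also lost their averaged call. The calls of Nr4a1, Irs1, Fibin and Ndrg1 were not followed in that fit, nor with a library left out. Of 8 alveolar type 2 genes 3 rose and 0 fell, of 4 club cell genes 1 fell, and of 4 thymocyte genes tested 0 passed in limma (2 at an unadjusted p under 0.05).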

How the data were processed

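RNA of 12 mouse lung libraries was measured, made from 500 ng of RNA per the labels, which name both rRNA depletion and poly-A purification. The submitters' processing notes name mm10; no aligner or counting program is given in the sources used here. The deposited signal values are gene-level counts after quantile normalization by the authors: from the values, the sorted columns are identical, each value is a multiple of 1/12 and each column sums to 6852201. They are not counts of reads, so log2(value + 1) was fitted with limma 3.58.1 (R 4.3.3; trend and robust options) over 19017 genes whose mean reached 1 in any group. One fit held all 12 libraries, with a mean for each group (8 residual degrees of freedom, median prior 8.41). Tests were two-sided. Depth is unknown, so no counting interval was computed. The score columns are fold changes and the p-value columns FDR-corrected p-values of the authors' EDGE test, per the file headers. A set of 12 transformed columns was not used.

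Column codes gave the groups, and the library numbers match no title. Within groups, libraries correlated at 0.971 to 0.990 (Spearman, across genes), and at most 4.46% of values were identical between libraries. The 10 genes and all lists were chosen with earlier results of these data known. Genes named are the 10, Has2, Angpt1, up to 4 genes with the smallest p in each list, and the 3 genes most like each of the 10 (1 is not reported here), with Pecam1 and Cldn5 named only as examples. Exon lengths came from GENCODE M21, promoters from RefSeq GRCm38.p6. The fit was tested on simulated data. The alternatives tried were pseudocounts of 0.5 and 10, other filters, scalings, covariates and limma options, and each library left out in turn.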

Additional observations from a re-analysis of the deposited data

How the results depend on the processing

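No paired analysis was possible because the columns carry a running library number that matches no replicate number of the titles. Of the 10 genes, 6 fell in WT as reported, 2 without limma's trend and robust options, 1 relative to the endothelial genes, 3 with the squamous level as a covariate and 0 with the leukocyte level. Leaving out 1 library in turn gave 3 to 6. In the averaged comparison 7 fell as reported and 5 without limma's trend and robust options, where Flt4 and Vegfa did not pass. The averaged count was 3 relative to the endothelial genes, 4 with the squamous covariate, 0 with the leukocyte covariate and 7 to 7 with 1 library left out. The leukocyte level moves with treatment, and with it 0 of all genes tested passed. With 1 library left out, 0 to 1 of the 10 genes passed in Has2+/-, 0 to 2 between genotypes under ovalbumin and 0 to 1 between genotypes on average. The ratios ran from 0.21 to 0.29 (Flt1 to Kdr), 0.09 to 0.13 (Vegfa to Kdr), 0.14 to 0.22 (Tie1 to Tek) and -0.02 to 0.14 (Angpt2 to Angpt1) in the same way, with Flt1 to Kdr at 0.28 and Vegfa to Kdr at 0.13 without library 8, where both passed. Without library 6 neither of them passed (adjusted permutation p of 0.12 and 0.127). Under the leukocyte covariate called changes turned sign in WT for Tek (0.15), Dll4 (0.0563), Gpihbp1 (0.31), Laptm5 (-0.0103), Sftpa1 (-0.0353) and Sftpd (-0.0167). On average they did for Tek (0.00187), Gpihbp1 (0.10), Laptm5 (-0.0129), Nr2f2 (0.0329) and Ptprc (-0.22), and the cause was not tested. Relative to the endothelial genes 2728 genes were higher and 574 lower in WT, against 1645 and 1530 as deposited; in Has2+/- 274 and 44, against 351 and 181. Between genotypes under ovalbumin 112 were higher and 69 lower, against 71 and 88 with median ratio scaling and 28 and 39 relative to the endothelial genes.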
